A study of Mus musculus with 4 samples.

Results

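The sites described here are genomic regions in mouse pro-B cells that were listed as peaks for both wild-type EBF1 (EBF1-wt) and the substitution mutant EBF1-H240A, and at which the mutant's signal was high relative to that of the wild type. Peaks of the 2 lists with at least 1 bp in common were paired 1 to 1 by largest overlap on chromosomes 1 to 19 and X, which gave 2242 shared sites. The pileup, the coverage by DNA fragments at the summit of a peak, was divided between the lists as EBF1-H240A over EBF1-wt. The sites described are the 561 of 2242 (25.0%) with a ratio at or above the 75th percentile, 0.886, and are called EBF1-H240A-high sites. The ratio chose them, so their height in either list is a description and supports nothing further.

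EBF1 (early B-cell factor 1) is a transcription factor that binds DNA as a dimer at a palindromic motif. It opens chromatin at B-lineage genes and is required for the specification of B cells and the maintenance of pro-B cells, the stage at which immunoglobulin heavy chain genes are rearranged. The H240A substitution replaces a histidine by an alanine and is known for weakening the contact of EBF1 with CNOT3, a subunit of the CCR4-NOT complex, which shortens the poly(A) tails of mRNAs. A mutant that binds DNA can be mapped by chromatin immunoprecipitation and sequencing (ChIP-seq) in the same way as the wild-type protein.

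The cells of all groups were C57BL/6 pro-B cells transformed with the Abelson murine leukemia virus (A-MuLV), of the genotype Ebf1fl/fl;RERTCre, in which a tamoxifen-inducible Cre recombinase deletes endogenous Ebf1. EBF1-wt or EBF1-H240A was supplied from a retroviral pmys vector that also encodes GFP, and 2 μM 4-hydroxy-tamoxifen was added 24 h after transduction to both groups. GFP+ cells were sorted, at times that the labels give differently, and expanded before use. The labels say that replacement was checked by immunoblot, but the peak tables do not measure endogenous EBF1 that remained, and the antibody is not named. There was 1 ChIP library per protein, each with its own input, so no difference below has a replicate check and no test between the proteins was made.

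The ratio has no natural value of 1. Each EBF1-wt fragment counts 0.635 in the deposited pileup, whereas each EBF1-H240A fragment counts 1, and the sources used here do not state how many reads each library had. The lowest local backgrounds in the lists, 1.88 for EBF1-wt and 1.32 for EBF1-H240A, stand in a ratio of 0.698, and the median shared site had a pileup ratio of 0.695. "Higher" therefore means higher than at the median shared site, not more mutant than wild-type protein on the DNA.

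At the 561 sites, EBF1-H240A peaks were tall and EBF1-wt peaks were low for shared sites. The pileup ratio ran from 0.886 to 3.55 with a median of 1.07, against medians of 0.695 at the 1120 sites with ratios of 0.533 to 0.885, called middle sites here, and 0.439 at the 561 sites with the lowest ratios, called EBF1-wt-high sites. In EBF1-wt, fragments at the summit ran from 21 to 322 with a median of 54, against 69 at middle and 84 at EBF1-wt-high sites. In EBF1-H240A they ran from 14 to 320 with a median of 41, against 29.5 and 22. The interquartile range of their ratio, from 0.970 to 1.27, lay not far above the boundary.

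**Figure D1:**
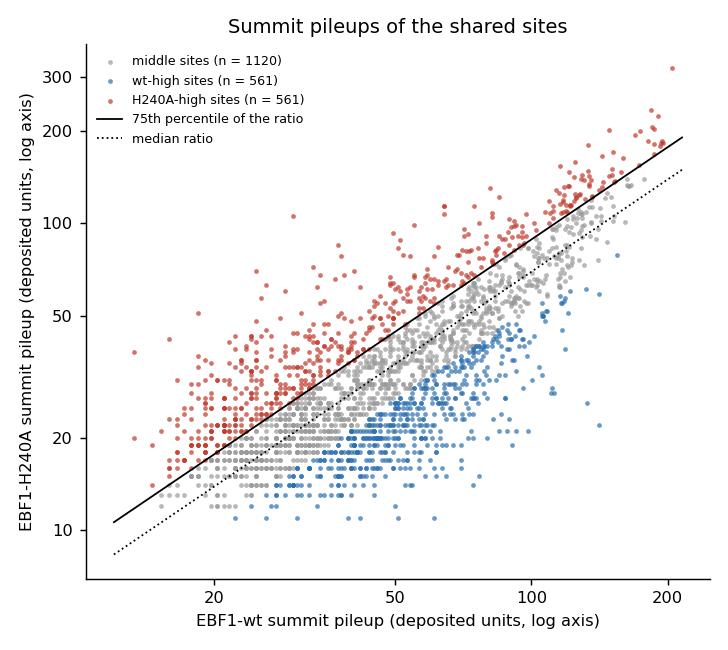
Summit pileup of each of the 2242 shared sites in the EBF1-wt list (x axis) and the EBF1-H240A list (y axis), both in deposited units on log axes, with 1 point per site coloured by its place in the ratio. The 561 EBF1-H240A-high sites lie on or above the solid line at a ratio of 0.886, at every height, and the dotted line marks the median ratio of 0.695.

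At many of these sites counting error reached down to the median ratio. An exact 95% interval of the ratio was computed from the fragments in both libraries. It covers counting error only, because fragments copied by PCR are not independent molecules and no second library of either protein shows how far libraries vary. The interval lay wholly above the median ratio at 328 of the 561 sites (58.5%), and over all shared sites at 329 of 2242 (14.7%). It lay wholly above the 75th percentile at 105 of the 561, or 4.68% of all shared sites. In 51 of the 561, or 2.27% of all shared sites, more fragments were counted for EBF1-H240A than for EBF1-wt. The ratio itself decided these counts, and they are given to show precision.

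At the boundary, membership was a matter of single fragments. The 5 sites just inside had ratios from 0.886 to 0.887 with 18 to 36 EBF1-H240A fragments, and the 5 just outside had ratios from 0.883 to 0.885 with 23 to 74. The site just inside, at 121131129 to 121131354 on chromosome 3, had 48 EBF1-wt and 27 EBF1-H240A fragments, and an interval of 0.532 to 1.45. The site just outside, at 19669755 to 19670118 on chromosome 7, had 98 and 55 fragments and an interval of 0.624 to 1.24. Both intervals hold the median and the boundary, so these sites could not be told apart at this depth.

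The 10 sites with the largest ratio were low or intermediate EBF1-wt peaks, with 21 to 59 fragments, and stood out in EBF1-H240A, with 38 to 106. The first lay at 60873107 to 60873466 on chromosome 11 (all positions are mm9 and those of the EBF1-wt peak). It had 47 EBF1-wt and 106 EBF1-H240A fragments, a ratio of 3.55 with a counting interval of 2.50 to 5.12. Among the 2242 shared sites it ranked 101 by EBF1-H240A pileup and 1703 by EBF1-wt pileup. No other shared site had a ratio above 2.85, and the EBF1-H240A peak was also the wider one, at 569 bp against 360 bp.

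The second, at 67307956 to 67308200 on chromosome 3, had 21 and 38 fragments, and no shared site had fewer EBF1-wt fragments. Its ratio was 2.85 with an interval of 1.63 to 5.11, and the summits of the 2 proteins lay 1 bp apart. The next, at 135623779 to 135624207 on chromosome 2, had 39 and 70 fragments and a ratio of 2.83 (1.89 to 4.30). Here the summits lay 167 bp apart, the most among these 10, so the proteins' peaks overlapped without a common summit.

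The fourth, at 63246929 to 63247227 on chromosome 9, had 29 and 51 fragments and a ratio of 2.77 (1.72 to 4.54), with summits 109 bp apart. The fifth, at 50759563 to 50759758 on chromosome 6, had 25 and 42 fragments and a ratio of 2.65 (1.58 to 4.53). The EBF1-wt peak of this site was 196 bp wide and the EBF1-H240A peak 391 bp. On chromosome 8, 113453116 to 113453382 had 41 and 63 fragments and a ratio of 2.42 (1.61 to 3.68). At each of these sites more fragments were counted for EBF1-H240A than for EBF1-wt.

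The seventh site, at 144944840 to 144945120 on chromosome 5, had 59 and 85 fragments and a ratio of 2.27 (1.61 to 3.22). Its EBF1-wt background, the local coverage the peak caller set against the summit, was 6.00, while its EBF1-H240A background was 1.32, the lowest of that list. The remaining 3 were 132643731 to 132643990 on chromosome 4 (40 and 57 fragments, ratio 2.25), 74436416 to 74436673 on chromosome 1 (52 and 72, ratio 2.18) and 74827785 to 74828002 on chromosome 8 (45 and 60, ratio 2.10). The intervals of all 10 began above the 75th percentile, the lowest at 1.40. In all 10 the EBF1-H240A peak was the wider one and had more fragments than the EBF1-wt peak.

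**Figure D2:**
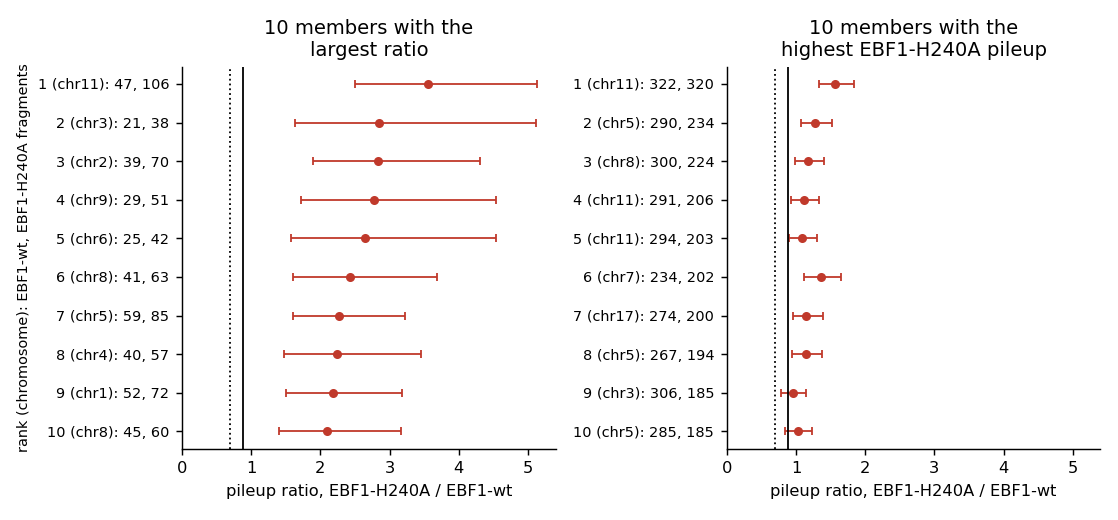
Pileup ratio (x axis) of the 10 sites with the largest ratio and the 10 EBF1-H240A-high sites with the highest EBF1-H240A pileup, with exact 95% counting intervals as bars and the chromosome and fragments of each site on the y axis. The solid line is the 75th percentile (0.886) and the dotted line the median (0.695) of all shared sites. Intervals are wide on the left, where 21 to 59 EBF1-wt fragments were counted, and narrow on the right, where 234 to 322 were.

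The EBF1-H240A-high sites also held many of the tallest EBF1-wt peaks. The tallest EBF1-H240A peak of a shared site, at 118994877 to 118995515 on chromosome 11, was also the tallest for EBF1-wt. It had 322 EBF1-wt and 320 EBF1-H240A fragments, and a ratio of 1.57 (1.34 to 1.83). The next, at 122283709 to 122284597 on chromosome 5, had 290 and 234 fragments and a ratio of 1.27 (1.07 to 1.52). The first stands apart from all other shared sites in EBF1-H240A.

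The third, at 108861799 to 108862442 on chromosome 8, had 300 and 224 fragments and a ratio of 1.18 (0.985 to 1.40). On chromosome 11, 57682167 to 57682751 had 291 and 206 fragments (ratio 1.12) and 88860389 to 88860888 had 294 and 203 (ratio 1.09). The site at 105636689 to 105637253 on chromosome 7 had fewer EBF1-wt fragments, 234, and 202 EBF1-H240A fragments, and a ratio of 1.36 (1.12 to 1.65). By EBF1-wt pileup it ranked 35, whereas the other 9 ranked between 1 and 16.

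The last 4 of the 10 were 25269911 to 25270575 on chromosome 17 (274 and 200 fragments, ratio 1.15), 22892595 to 22893193 on chromosome 5 (267 and 194, ratio 1.15), 116210805 to 116211275 on chromosome 3 (306 and 185, ratio 0.953) and 118944795 to 118945768 on chromosome 5 (285 and 185, ratio 1.02). Summits of the proteins lay 5 to 46 bp apart at these 10 sites, and the EBF1-H240A peak was the wider one at 6 of them. The counting intervals of 2 of them, the last 2 named, reached below the 75th percentile, and all 10 began above the median.

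Among shared sites, the EBF1-H240A-high sites were commonest where the EBF1-wt peak was among the lowest or the tallest. The EBF1-wt fragments are part of the ratio that chose these sites, so the shares are a description. Shared sites were split into 10 bins of like number by EBF1-wt fragments. In the lowest bin, of up to 36 fragments, 137 of 227 sites (60.4%, 95% Wilson interval 53.9 to 66.5) were EBF1-H240A-high. The share was 13.4% (9.69 to 18.4) at 62 to 72 fragments and 14.5% (10.4 to 19.8) at 101 to 120. In the tallest bin, of 157 to 322 fragments, it was 76 of 225 (33.8%, 27.9 to 40.2). The median ratio fell from 0.974 in the lowest bin to 0.577 at 62 to 72 fragments and was 0.796 in the tallest bin.

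The chance of being listed as a shared site and the EBF1-wt fragments, the denominator of the ratio, both change along these bins, and their part in the curve was not tested. A shared site needs an EBF1-H240A call, and no shared site had fewer than 11 EBF1-H240A fragments. With 11 EBF1-H240A fragments, a site of 36 EBF1-wt fragments has a ratio of 0.482. The lowest bin held 1 EBF1-wt-high site. In the lowest bin 18.6% (16.6 to 20.9) of the 1218 EBF1-wt peaks were paired, and in the tallest bin all 225 were. When the 561 sites were counted against all EBF1-wt peaks, paired or not, they made up 11.2% (9.59 to 13.1) of the lowest bin, 8.79% (6.30 to 12.1) at 62 to 72 fragments and 17.4% (13.0 to 22.9) at 121 to 156. Counted this way, the tallest bin, in which every peak had a partner, had the highest share, 33.8%. Whether duplicate reads were removed is not stated in the sources used here, and the part of duplicates in the share of the tallest bin was not tested.

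**Figure D3:**
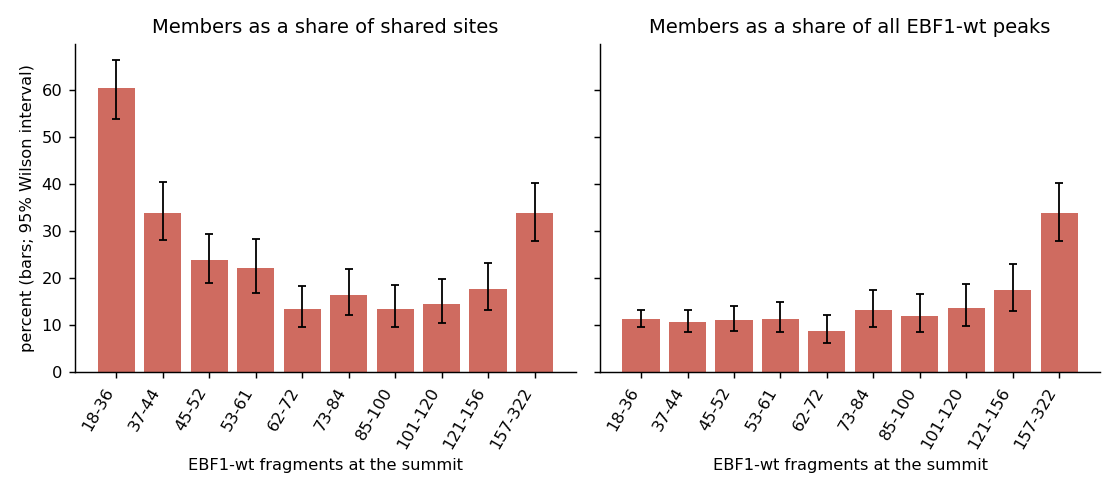
EBF1-H240A-high sites as a percent of shared sites (left) and of all EBF1-wt peaks (right), in 10 bins of EBF1-wt fragments at the summit (x axis), with 95% Wilson intervals. On the left both ends are high (60.4% and 33.8%), and on the right the bins up to 156 fragments lie between 8.79% and 17.4% while the tallest bin is at 33.8%.

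The low and the tall sites differ in how firmly the ratio was measured. Of the 272 EBF1-H240A-high sites with up to 52 EBF1-wt fragments, 113 (41.5%) had a counting interval above the median ratio, as did 139 of 213 (65.3%) with 53 to 156 fragments and all 76 in the tallest bin. Over all shared sites of the same heights it was 113 of 699 (16.2%), 139 of 1318 (10.5%) and 77 of 225 (34.2%), and since the ratio decided these counts, nothing is read from them beyond precision. Those 76 tall sites were found on 18 chromosomes and had medians of 205 EBF1-wt and 133 EBF1-H240A fragments. The 29 tall EBF1-wt-high sites had medians of 177 and 50.

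Summits of the 2 proteins lay closer together at the EBF1-H240A-high sites, but not when sites of like EBF1-H240A height were compared. The median distance was 17 bp (order-statistic interval 15 to 20), against 21 bp at middle and 27 bp at EBF1-wt-high sites. Within 50 bp lay 498 of 561 (88.8%, 85.9 to 91.1), against 83.7% (81.4 to 85.7) and 80.6% (77.1 to 83.6). Position within the peak was not part of the rule, but the precision of a summit moves with the number of fragments.

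At 11 to 19 EBF1-H240A fragments the median distances were 28, 32 and 31 bp for EBF1-H240A-high, middle and EBF1-wt-high sites. At 26 to 34 fragments they were 24, 24.5 and 23 bp, and at 35 to 54 fragments 19, 16 and 17 bp. In each of the 5 height bins the intervals of the 3 groups overlapped. At like EBF1-H240A height, no difference in summit distance among the 3 groups was detectable at this depth. EBF1-wt fragments were not matched and by the rule are fewer at the EBF1-H240A-high sites. The distance also has no sign, and a shift of the mutant's summit was not tested.

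**Figure D4:**
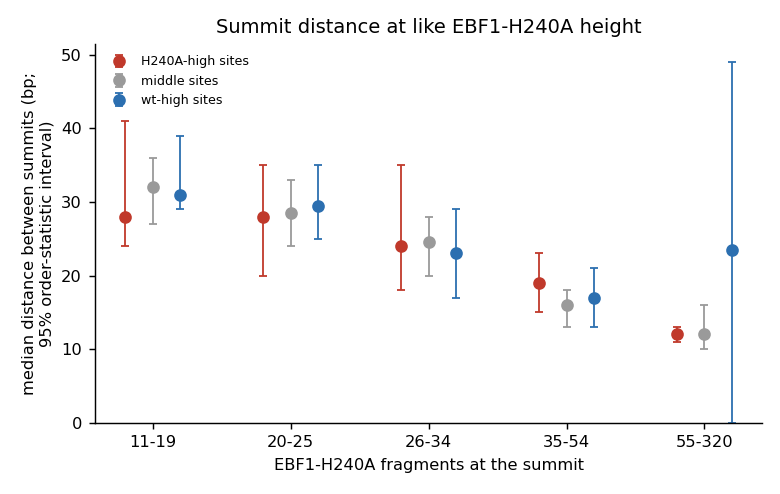
Median distance between the EBF1-wt and EBF1-H240A summits of a shared site (y axis, bp, with 95% order-statistic intervals) in 5 bins of EBF1-H240A fragments (x axis), for EBF1-H240A-high, middle and EBF1-wt-high sites. The distance falls with height, from 28 and 32 bp to 12 bp at EBF1-H240A-high and middle sites, and the intervals of the 3 groups overlap in every bin. The last bin holds 10 EBF1-wt-high sites.

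Peak widths followed height in the same way. The EBF1-H240A peak was the wider of the pair at 487 of the 561 sites (86.8%), against 60.6% of middle and 22.8% of EBF1-wt-high sites, with median widths of 395, 350.5 and 310 bp. The EBF1-wt peaks had median widths of 308, 331.5 and 361 bp in the same order. At 26 to 34 EBF1-H240A fragments, EBF1-H240A widths were 344, 338 and 341.5 bp, and in each of the 5 height bins the intervals of the 3 groups overlapped.

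Local background was slightly higher for EBF1-H240A and not higher for EBF1-wt at the EBF1-H240A-high sites. For EBF1-wt its median was 2.66 (2.47 to 2.85) at the EBF1-H240A-high sites, and 2.85 in both other groups. For EBF1-H240A it was 2.09 (1.92 to 2.29), against 1.84 (1.74 to 1.92) and 1.74 (1.69 to 1.90). Fold enrichment divides by this background, and so a choice of sites by the ratio of fold enrichments gave another group: 351 of the 561 sites (62.6%) were chosen by both measures. The 210 chosen by pileup alone had a median EBF1-H240A background of 2.53, whereas the 351 had 1.74. When sites were chosen by fold enrichment, both directions turned: the median EBF1-wt background was 3.23 at the sites with high ratios against 2.28 at those with the lowest, and the EBF1-H240A background was 1.60 against 2.29. Background is itself part of that ratio. Of the sites with the largest ratio, the first had 8.01-fold EBF1-wt and 39.0-fold EBF1-H240A enrichment, so it was high by either measure.

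More of the EBF1-H240A-high sites had a further EBF1-H240A peak close by. Of the EBF1-H240A peaks, 515 entered no pair. Overlap is part of their definition, since a peak that overlapped only an EBF1-wt peak already paired was left unpaired beside a shared site. Their distance from shared sites was not otherwise part of the rule. This comparison was chosen after seeing the data. Within 20 kb of the EBF1-wt summit, 63 of 561 EBF1-H240A-high sites (11.2%, 8.88 to 14.1) had such a peak, against 65 of 1120 (5.80%, 4.58 to 7.33) of middle and 38 of 561 (6.77%, 4.97 to 9.16) of EBF1-wt-high sites. The interval of the EBF1-H240A-high sites lay above that of the middle sites and overlapped slightly with that of the EBF1-wt-high sites. Within 10 kb the shares were 7.13% (5.28 to 9.56), 3.57% (2.63 to 4.83) and 3.21% (2.04 to 5.01), where it lay above both. Among sites with more than 29 EBF1-H240A fragments they were 8.35% (6.01 to 11.5), 3.39% (2.18 to 5.24) and 5.26% (2.57 to 10.5). There the interval of the EBF1-H240A-high sites lay above that of the middle sites but overlapped that of the EBF1-wt-high sites. With up to 29 fragments the shares were 4.22%, 3.75% and 2.57%, and all 3 intervals overlapped.

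Within 20 kb, the shares at sites with more than 29 EBF1-H240A fragments were 12.2% (9.29 to 15.7), 6.25% (4.53 to 8.57) and 9.77% (5.80 to 16.0). The order of the groups was the same, but the interval of the EBF1-wt-high sites held the whole interval of the EBF1-H240A-high sites. At sites with up to 29 fragments the shares were 9.04% (5.55 to 14.4), 5.36% (3.78 to 7.54) and 5.84% (3.99 to 8.48), with intervals that overlapped. The further peaks were low, with a median of 19 fragments and at most 51. The 2177 EBF1-wt peaks that entered no pair lay within 20 kb of 141 of 561 (25.1%), 246 of 1120 (22.0%) and 125 of 561 (22.3%) sites, with Wilson intervals that overlapped. Nearby sites share their surroundings and are not independent, and no p-value is given.

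**Figure D5:**
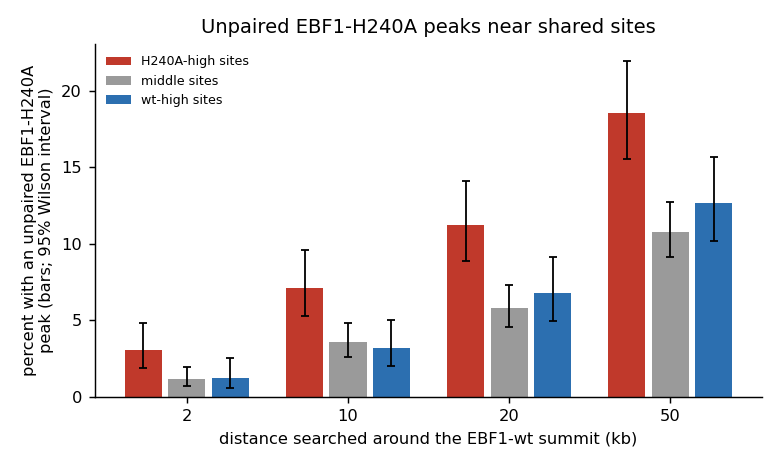
Percent of shared sites (y axis, with 95% Wilson intervals) with an EBF1-H240A peak that entered no pair within 2, 10, 20 or 50 kb of the EBF1-wt summit (x axis), for EBF1-H240A-high, middle and EBF1-wt-high sites. The EBF1-H240A-high sites have the highest bar at each distance, for example 11.2% against 5.80% and 6.77% at 20 kb.

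The nearest shared site was EBF1-H240A-high in like shares for all 3 groups at 20 kb. Of the 181 EBF1-H240A-high sites with another shared site within 20 kb, the nearest was itself EBF1-H240A-high for 47 (26.0%, 20.1 to 32.8). That share was 30.1% (25.2 to 35.4) for middle sites and 29.6% (22.7 to 37.5) for EBF1-wt-high sites. Within 2 kb it was 20 of 51 (39.2%, 27.0 to 52.9), against 32.4% (22.4 to 44.2) and 27.3% (15.1 to 44.2), with intervals that overlapped. The nearest shared site within 2 kb was EBF1-wt-high for 13 of 33 EBF1-wt-high sites (39.4%, 24.7 to 56.3), for 9 of 51 EBF1-H240A-high sites (17.6%, 9.57 to 30.3) and for 11 of 68 middle sites (16.2%, 9.28 to 26.7). These intervals also overlapped. Another EBF1-H240A-high site lay within 20 kb of 10.5% (8.24 to 13.3) of EBF1-H240A-high sites, and another EBF1-wt-high site within 20 kb of 8.02% (6.05 to 10.6) of the equally many EBF1-wt-high sites. Another EBF1-wt summit of any kind lay within 2 kb of 79 of the 561 EBF1-H240A-high sites (14.1%, 11.4 to 17.2). The same held for 104 of 1120 middle sites (9.29%, 7.72 to 11.1), 57 of 561 EBF1-wt-high sites (10.2%, 7.93 to 12.9) and 240 of all 2242 (10.7%, 9.49 to 12.1). Here the interval of the EBF1-H240A-high sites lay above that of the middle sites and overlapped that of the EBF1-wt-high sites. These shares were not compared at like height.

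Chains of 3 EBF1-H240A-high sites with each summit within 20 kb of the next were found in 3 places. Chains in the other groups were not counted, so these are not read as a trait of the EBF1-H240A-high sites. On chromosome 3, from 122109338 to 122121834, the sites had 93, 176 and 55 EBF1-wt fragments and 68, 114 and 47 EBF1-H240A fragments, with ratios of 1.15, 1.02 and 1.35. On chromosome 4, from 149015865 to 149032301, they had 70, 35 and 82 EBF1-wt and 49, 23 and 57 EBF1-H240A fragments, with ratios of 1.10, 1.04 and 1.10. On chromosome 7, from 87337071 to 87359298, they had 140, 35 and 55 and 94, 22 and 40 fragments, with ratios of 1.06, 0.991 and 1.15. Each span held 3 shared sites, all EBF1-H240A-high, and no unpaired peak of either list. The fragments varied widely within a chain, and the counting intervals of its ratios overlapped.

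The EBF1-H240A-high sites were spread over all 20 chromosomes. Their share of shared sites was lowest on chromosome 1, with 21 of 137 (15.3%, 10.2 to 22.3), and highest on chromosome 19, with 27 of 80 (33.8%, 24.3 to 44.6). Chromosomes 4 and 8 had 31.6% (24.7 to 39.3) and 30.8% (23.1 to 39.6). Chromosome 1 was the 1 of 20 whose interval left out the overall 25.0%, and these chromosomes were picked for their shares, so their intervals test nothing. The median ratio was 0.667 on chromosome 1 and 0.765 on chromosome 19, and chromosome 17, where the background was highest in both lists (3.61 and 2.79), had an ordinary share of 22.1% (16.2 to 29.5). Genes near these sites were not named, because the gene and promoter tables at hand use a build other than mm9, and the sequence of the sites was not analysed here.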

How the data were processed

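Each of the 2 ChIP libraries has 1 peak list. Per the submitters' processing notes, the build was mm9 and the tools included MACS2 (version 2.1.0.20150731), HOMER (version 4.6), Bowtie2, Picard, SAMtools and bcl2fastq (version 1.8.4). Their settings, and whether duplicate reads were removed, are not stated there. Per the labels' protocols, chromatin was sheared to 300 bp on average and libraries had 10 PCR cycles. The lists give, per the file headers, the start, end, summit, pileup and fold enrichment of a peak with its p-value and q-value. Pileup as deposited by the authors is coverage (a signal). The deposited fold was read as the ratio of pileup to local background with 1 added to each. The p-values and q-values were deposited on the −log10 scale (lowest −log10 q 2.06 for EBF1-wt and 2.01 for EBF1-H240A). These values are the authors', and peaks were listed separately for each library.

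All EBF1-wt pileups lay within 0.0055 of whole multiples of a step that rounds to 0.6345, and all EBF1-H240A pileups were whole. This gave the fragments at each summit. Background was computed as (pileup + 1) / fold − 1. Pairs, medians with order-statistic intervals, Wilson intervals for shares and exact binomial intervals of the ratio were computed in Python 3.11.15 with numpy 2.4.6, pandas 2.3.3 and scipy 1.17.1, all at the 95% level, and figures were drawn with matplotlib 3.10.9. Pairing was tested on simulated lists. With 1 library per protein no test was made. The sites, measures and alternatives were chosen with earlier results of these data known. Sites named are the 10 with the largest ratio, the 10 with the highest EBF1-H240A pileup, those at the boundary and every chain of 3 or more.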

Additional observations from a re-analysis of the deposited data

How the results depend on the processing

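With 31 changes of setting, 10 values moved beyond their interval (for counts, by over 1.5 times) and 21 did not. The 561 sites became 225 at the 90th percentile, which keeps fewer sites by construction. A percentile also fixes the number of sites as a share of the pairs, so the counts that did not move support nothing. With the ratio of fold enrichments the count was again 561, but only 351 of these were among the sites described. The median EBF1-wt width of the 561 sites, 308 bp, became 287 bp at the 90th percentile. When each peak of a pair had to reach a −log10 q of 10, it became 345 bp, and the EBF1-H240A width of 395 bp became 426 bp. With the ratio of fold enrichments, the median EBF1-wt background of 2.66 became 3.23 and the EBF1-H240A background of 2.09 became 1.60. These 2 values also turned their direction against the EBF1-wt-high sites, since background is part of that ratio. The share with another EBF1-H240A-high site nearby, 10.5% at 20 kb, was 6.77% at 10 kb and 18.7% at 50 kb. The share with an unpaired EBF1-H240A peak nearby, 11.2% at 20 kb, was 7.13% at 10 kb and 18.5% at 50 kb. That last result and its alternatives were chosen after seeing the data. The planned motif and promoter comparisons were not run, because sequence and annotation of mm9 were not used here. No paired analysis was possible because each protein has a single library.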

Other observations

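Of the shared sites, 210 were at or above the 75th percentile of the ratio of fold enrichments but not of the ratio of pileups. They had medians of 71 EBF1-wt and 32 EBF1-H240A fragments and a median pileup ratio of 0.765. Their median background was 4.00 for EBF1-wt and 1.53 for EBF1-H240A.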
